A study of Mus musculus with 8 samples.

Results

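The 10 genes described here encode the core enzymes of mitochondrial fatty acid oxidation, and their names were listed for that function. The rule itself uses no measured value, but the list was chosen with earlier results of these data known. The genes are Cpt1a, Cpt2, Acadm, Acadl, Acadvl, Hadha, Hadhb, Acaa2, Etfa and Etfdh. All 10 were in the count table of 22065 named genes, and all 10 were among the 16444 genes that passed the filter on low counts. No member had fewer than 122 reads in any library, so none passed the filter through one group alone. Etfa was higher in every library labelled Mitol KO than in any control library, and it was the 1 member that passed the test across all genes. The other 9 members did not pass it, and 8 of the 10 had fitted log2 fold changes above 0.

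Fatty acid oxidation breaks long acyl chains down inside mitochondria and hands their electrons to the respiratory chain. Cpt1a attaches acyl groups to carnitine at the outer membrane and Cpt2 takes them off on the inner membrane. The acyl-CoA dehydrogenases Acadm, Acadl and Acadvl take the first step on chains of different length, the trifunctional protein made of Hadha and Hadhb carries out the following steps on long chains, and Acaa2 is a thiolase that releases acetyl-CoA. The dehydrogenases pass electrons to the electron transfer flavoprotein, a dimer of Etfa and Etfb, which the membrane enzyme Etfdh reoxidizes. In the bone marrow this pathway is known for its part in the upkeep of hematopoietic stem cells (HSCs).

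The libraries came from C57BL/6 mice aged 8 to 10 weeks. The 4 libraries labelled Mitol KO were made from Mitol Flox/Flox; MX1-cre +/- mice, in which Poly:IC induces the cre and so deletes Mitol, the gene of a mitochondrial ubiquitin ligase that the count table lists as Marchf5. The 4 control libraries were made from Mitol Flox/Flox; MX1-cre -/- littermates, which received the same Poly:IC, so the floxed alleles and the Poly:IC were shared by both groups. MX1-cre is active in blood cells at large and in other tissues, and is not restricted to HSCs. Each library held 100 HSCs sorted from bone marrow as CD150+ CD48- EPCR+ Lineage- cells 1 week after Poly:IC. Because the labels do not say whether each library came from its own mouse, the p-values measure only the spread between these libraries. In such bulk libraries a change in the share of cells of one type cannot be told apart from a change in the RNA per cell.

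The count of Marchf5 does not settle the labels. Its normalized count, the read count divided by the library's size factor, was 276, 232, 308 and 281 in the libraries labelled Mitol KO and 299, 312, 333 and 262 in the control libraries. The groups overlapped, and the log2 fold change of -0.15 ± 0.13 (SE) was not past the threshold (edgeR, adjusted p = 0.498). The sources used here do not give the deleted exons, and reads from the exons that stay would still be counted, so these counts do not check the groups, which are used below as labelled. Per the study's methods, deletion of Mitol in the mice was checked by PCR.

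Facts of the whole set of libraries touch the members in the following way. Between 7214935 and 12398138 reads per library fell on named genes, and the totals did not differ beyond their spread (2-sided exact permutation test, p = 0.2). All 8 HSC markers were detected, and their summed normalized count was 24924 to 28748 in the libraries labelled Mitol KO against 36628 to 43923 in control libraries; 3 of them were called lower, Kit and Hlf included. All 10 G2/M genes were called higher, with sums of 5677 to 11936 against 2765 to 5923. Red cell markers summed to 1065 to 3623 against 463 to 895, and Hba-a1, Hba-a2 and Hbb-bs were high in Mitol KO replicate 3 alone. Hbb-bt, an adult beta globin, was called higher, at 801 to 1432 against 144 to 595 (log2 1.29; edgeR, adjusted p = 0.0442), without overlap of the groups. Summed counts of neutrophil markers were 14.8 to 30.2 against 44.8 to 88.9, those of B cell markers 136 to 150.3 against 145 to 204, those of T cell markers 189 to 259 against 172 to 200.5, those of macrophage markers 288 to 348 against 177 to 294, and those of mast cell and basophil markers 7.32 to 13.8 against 11.3 to 21.1. Megakaryocyte markers summed to 2456 to 5202 against 3269 to 4933, with Pf4 called lower. Of the 7 adipocyte and hepatocyte markers, 2 were in the table, and they summed to 0 to 10.6 against 5.28 to 13.8.

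Counted over the members, 1 of 10 was called higher at an adjusted p under 0.05, where 4.68% of all tested genes were, and 0 of 10 were called lower, where 3.75% of all tested genes were (edgeR's quasi-likelihood test, Benjamini-Hochberg over 16444 genes). At an unadjusted p under 0.05, 2 members (Cpt1a and Etfa) were higher against a background of 13.6%, and 1 (Acadm) was lower against 12.8%. The groups did not overlap for 1 member in the higher direction, against 8.17% of all genes, and for 0 members in the lower direction, against 7.18%. With 10 genes, these counts were close to what the background shares give. DESeq2 and limma-voom also called 0 members lower. The median log2 fold change of the members was 0.18, beside -0.02 over all tested genes, of which 7841 had a value above 0. The 8 members above 0 and the 2 below, Acadm and Hadhb, had the same sign under every other scaling, filter and tool tried on all 8 libraries.

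**Figure D1:**
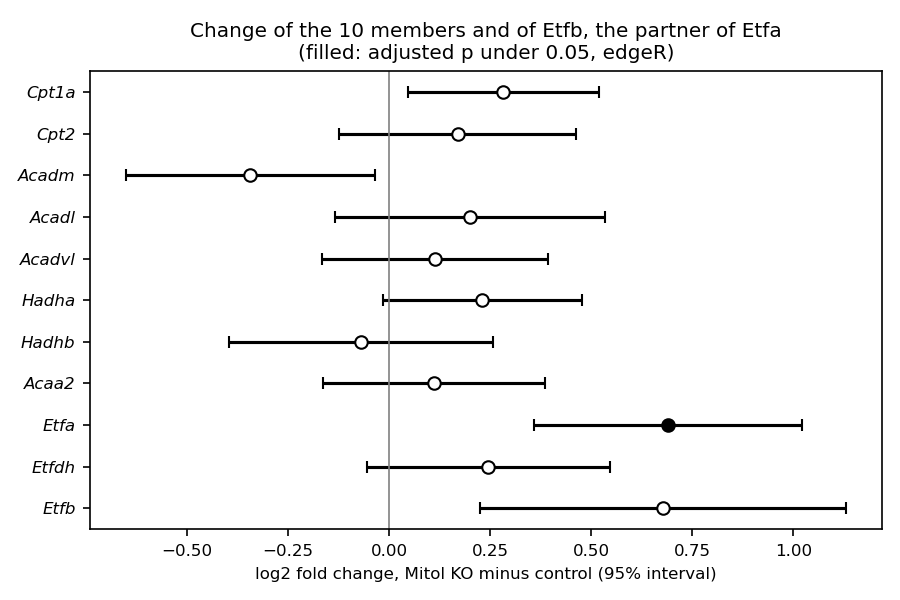
Log2 fold change (Mitol KO minus control) of each member and of Etfb, from edgeR on 4 libraries a group. Points are estimates, bars are 95% intervals, and a filled point has an adjusted p under 0.05. Etfa is the filled point at 0.69, Acadm and Hadhb lie below 0, and the open point of Etfb, at 0.68, has a wider interval than that of Etfa.

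The electron transfer flavoprotein held the one called member. Etfa, the alpha subunit, lies on chromosome 9 of GRCm39 (chr9:55361714-55419792, minus strand), with 12 exons in its canonical transcript. Its normalized count was 293, 318, 233 and 214 in the libraries labelled Mitol KO. In the control libraries it was 161, 161, 155 and 170. Every library labelled Mitol KO lay above every control library, the control values lay close together, and Mitol KO replicates 1 and 2 were the highest. The processed pseudogene Gm15289 is 95.4% identical to Etfa over 240 bases. Opposite-strand exons of the noncoding gene Gm69948 cover 0.968% of the exon bases of Etfa. How reads of these stretches were counted is not known.

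The group means of Etfa were 264 ± 49.0 and 162 ± 5.93 (SD, n = 4 each), a 1.64-fold difference. Its fitted log2 fold change was 0.69 ± 0.15 (SE), with a 95% interval of 0.36 to 1.02 (edgeR, adjusted p = 0.0215). Leaving out Mitol KO replicate 1 (edgeR, adjusted p = 0.0600, log2 0.64), Mitol KO replicate 2 (0.0662, log2 0.60), Control replicate 2 (0.0646, log2 0.69) or Control replicate 3 (0.0516, log2 0.67) ended the call, while the fold change stayed within 0.60 to 0.80 over all 8 such fits. The summed G2/M genes ran 11936, 11382, 9464 and 5677 in the same libraries labelled Mitol KO and 2826, 2765, 5923 and 4175 in the control libraries. Their part in the Etfa result was not tested.

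Etfb, the beta subunit, was not a member but forms the dimer with Etfa. Its normalized count was 137, 134, 108 and 87.8 in the libraries labelled Mitol KO and 79.1, 77.7, 56.5 and 75.4 in the control libraries. The groups did not overlap, and Mitol KO replicates 1 and 2 were again the highest. The log2 fold change of 0.68 ± 0.21 (SE), with a 95% interval of 0.22 to 1.13, missed the threshold (edgeR, adjusted p = 0.0636). DESeq2 (adjusted p = 0.0243) and the edgeR fit without Mitol KO replicate 4 (adjusted p = 0.0240) called it.

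Within a library, the ratio of Etfa to Etfb counts overlapped between the groups. The log2 ratio Etfa/Etfb was 1.09, 1.24, 1.11 and 1.28 in the libraries labelled Mitol KO and 1.02, 1.04, 1.45 and 1.17 in the control libraries. Control replicate 3 was the highest and Control replicate 1 the lowest, and the means of 1.18 ± 0.09 and 1.17 ± 0.20 (SD, n = 4 each) differed by 0.01 (exact permutation, 2-sided, p = 0.971, and 0.971 after adjustment for 6 ratios). The gene Etfbl shares 39.6% of the annotated exon bases of Etfb on the same strand and is not a row of the table used here, so how the reads of that stretch were counted is not known.

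The sequence before the start of Etfb is shown because Etfb is the partner of the called member in the dimer. The run holds the 250 bases before the start of the canonical transcript, from GRCm39 (chr7:43093257-43093506, plus strand), written 5′ to 3′ on the strand of the gene, with motif matches in capitals.
Etfb: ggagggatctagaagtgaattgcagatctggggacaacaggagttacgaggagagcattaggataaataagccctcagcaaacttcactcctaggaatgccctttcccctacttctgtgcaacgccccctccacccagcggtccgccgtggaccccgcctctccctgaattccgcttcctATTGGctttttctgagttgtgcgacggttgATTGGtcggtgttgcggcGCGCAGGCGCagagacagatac

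Capitals mark 2 NF-Y boxes (CCAAT, here as ATTGG on the other strand) and 1 NRF1 site (here on the other strand). Of the 21757 windows of that length before protein-coding genes, 36.5% held at least 1 NF-Y box and 3.7% at least 1 NRF1 site on either strand. The Etfb window had 55.6% G and C, beside a median of 53.2% over all windows.

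Etfdh, the quinone oxidoreductase that takes electrons from the flavoprotein, had a smaller fitted change than Etfa. Its normalized count was 380, 473, 334 and 352 in the libraries labelled Mitol KO and 289, 352, 285 and 354 in the control libraries. Mitol KO replicate 2 stood highest and the groups overlapped. The log2 fold change was 0.24 ± 0.14 (SE), with a 95% interval of -0.06 to 0.55 (edgeR, adjusted p = 0.285), and 0.14 without Mitol KO replicate 2. Opposite-strand exons of Ppid cover 7.05% of the exon bases of Etfdh, and without strand the reads of that stretch cannot be told apart.

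The ratio of Etfdh to Etfa within a library was lower in all 4 libraries labelled Mitol KO than in any control library. The log2 ratio Etfdh/Etfa was 0.38, 0.57, 0.52 and 0.72 in the libraries labelled Mitol KO and 0.84, 1.13, 0.87 and 1.06 in the control libraries. Their means were 0.55 ± 0.14 and 0.98 ± 0.14 (SD, n = 4 each), so Etfdh had 1.46 counts to each Etfa count in the first group and 1.97 in the second. The difference of -0.43 reached p = 0.0286 in a 2-sided exact permutation test, the smallest that 4 against 4 libraries allow, and 0.171 after adjustment over the 6 ratios. This ratio holds the Etfa value that passed the test above and is not independent of it. Without Control replicate 2 (difference -0.38) or Control replicate 4 (-0.40), the exact permutation p was 0.0571. The groups still did not overlap without either library, and with fewer libraries the p of this test takes coarser steps.

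**Figure D2:**
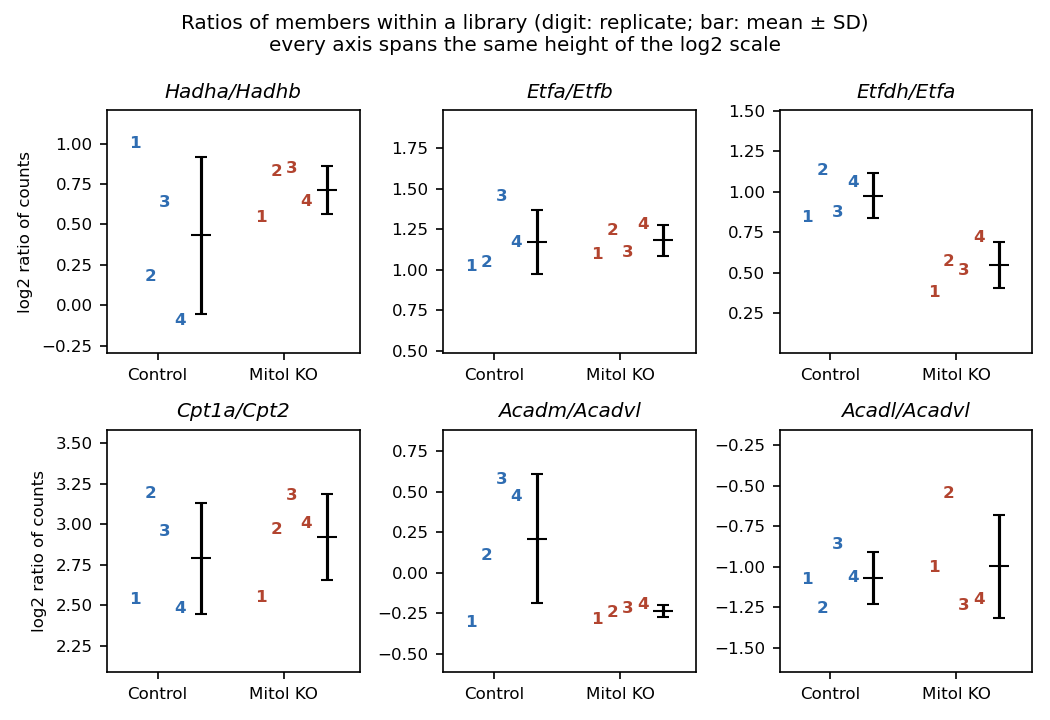
Log2 ratio of read counts of 2 genes within each library, for the 6 ratios compared; digits are replicates, bars are mean ± SD over 4 libraries, and all axes span the same height. The groups are apart in Etfdh/Etfa, at 0.55 against 0.98, and overlap in the other 5 ratios, with control libraries spread wider than Mitol KO ones in Hadha/Hadhb and Acadm/Acadvl.

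The carnitine palmitoyltransferases opened the pathway with the most abundant member. Cpt1a lies on chromosome 19 (chr19:3371853-3437996, plus strand). Its normalized count was 2811, 3049, 3081 and 2834 in the libraries labelled Mitol KO and 2130, 2969, 2352 and 2114 in the control libraries. The libraries labelled Mitol KO lay close together, and Control replicate 2 alone among the controls reached into their range.

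The means of Cpt1a were 2944 ± 141 and 2391 ± 400.1 (SD, n = 4 each). The log2 fold change was 0.28 ± 0.11 (SE), with a 95% interval of 0.05 to 0.52 (edgeR, adjusted p = 0.123). Without Control replicate 2 it was 0.40, past the threshold at an adjusted p of 0.0495 (edgeR). Cpt1a took 44.0% to 48.5% of the reads of the 10 members in the libraries labelled Mitol KO and 40.5% to 47.4% in the control libraries. Cpt1b, the muscle form, had normalized counts of at most 3.12 and 8.98 in the respective groups and did not pass the filter. Gm44502 shares 68.5% of the annotated exon bases of Cpt1b on the same strand and is not a row of the table used here, so how those reads were counted is not known.

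Cpt2 had normalized counts of 481, 390, 341 and 353 in the libraries labelled Mitol KO and of 367, 325, 303 and 379 in the control libraries. The groups overlapped, with Mitol KO replicate 1 the highest. Its log2 fold change was 0.17 ± 0.14 (SE; edgeR, adjusted p = 0.456), and the 95% interval of -0.12 to 0.46 leaves room for a difference in either direction. Without Mitol KO replicate 1 the log2 fold change of Cpt2 was 0.059. The log2 ratio Cpt1a/Cpt2 was 2.92 ± 0.27 and 2.79 ± 0.34 (SD, n = 4 each), a difference of 0.13 within the spread (exact permutation, 2-sided, p = 0.514, and 0.771 after adjustment for 6 ratios).

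Among the acyl-CoA dehydrogenases, the medium-chain enzyme Acadm had the lowest log2 fold change of the 10 members. Acadm lies on chromosome 3 (chr3:153627989-153650317, minus strand). Its normalized count was 295, 293, 344 and 357 in the libraries labelled Mitol KO and 309, 420, 426 and 456 in the control libraries. Control replicate 1 lay among the libraries labelled Mitol KO and the other 3 control libraries lay above them all.

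The means of Acadm were 322 ± 32.9 and 403 ± 64.7 (SD, n = 4 each). The log2 fold change was -0.34 ± 0.14 (SE), with a 95% interval of -0.65 to -0.04, an unadjusted p of 0.0316 and an adjusted p of 0.146 (edgeR). Over the fits that left out 1 library the adjusted p ran from 0.0546 to 0.324 and the fold change from -0.44 to -0.27. Its direction was opposite to that of the other dehydrogenases among the members, neither of which passed the test. Of the 9 acyl-CoA dehydrogenases tested outside the members, 7 had log2 fold changes below 0 and 2 above, with a median of -0.14.

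Acadl, for long chains, had normalized counts of 179, 238, 169 and 178 in the libraries labelled Mitol KO and of 181, 163, 156 and 157 in the control libraries. Mitol KO replicate 2 stood apart from the rest of its group. Acadl had a log2 fold change of 0.20 ± 0.15 (SE; edgeR, adjusted p = 0.441), and of 0.084 without that library. Acadvl, for very long chains, had 360, 348, 401 and 409 in the libraries labelled Mitol KO and 382, 391, 285 and 330 in the control libraries. These values overlapped, and the log2 fold change was 0.11 ± 0.13 (SE; edgeR, adjusted p = 0.617), and 0.031 without Control replicate 3. Exons of Dvl2 on the other strand cover 38.2% of the exon bases of Acadvl, more than for any other member, and Dvl2 itself had 367 to 497 counts a library.

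The log2 ratio Acadm/Acadvl was -0.29, -0.25, -0.22 and -0.20 in the libraries labelled Mitol KO and -0.31, 0.11, 0.58 and 0.47 in the control libraries. The first group was narrow (SD 0.04) and the second wide (SD 0.40), with Control replicate 1 at the lowest value of all 8. The difference in means was -0.45 (exact permutation, 2-sided, p = 0.143, and 0.429 after adjustment for 6 ratios). Without Control replicate 1 the difference was -0.62 and the exact permutation p was 0.0286. That p was not adjusted for the 6 ratios and is the smallest that such a split allows. It came from leaving out the lowest control library. Acadl/Acadvl ran from -1.24 to -0.55 and from -1.26 to -0.87, and its means differed by 0.07 (exact permutation, 2-sided, p = 0.743, and 0.891 after adjustment for 6 ratios).

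The trifunctional protein is encoded by a head-to-head gene pair, Hadha (chr5:30323302-30360187, minus strand) and Hadhb (chr5:30359204-30389997, plus strand), whose annotated exons share 932 bases on opposite strands. Opposite-strand exons of Garem2 cover 21.3% of the exon bases of Hadha, and Garem2 itself had 2 to 15 counts a library. Hadha, the alpha subunit, had normalized counts of 687, 723, 698 and 607 in the libraries labelled Mitol KO and of 645, 574, 601 and 469 in the control libraries. In 3 of the 4 libraries labelled Mitol KO the count was above all control libraries. Hadha had a log2 fold change of 0.23 ± 0.11 (SE), with a 95% interval of -0.02 to 0.48 (edgeR, adjusted p = 0.219), and 0.15 without Control replicate 4.

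Hadhb, the beta subunit, had normalized counts of 472, 407, 387 and 389 in the libraries labelled Mitol KO and of 322, 506, 386 and 499 in the control libraries. The control libraries enclosed the whole range of the others. Its log2 fold change was -0.07 ± 0.15 (SE; edgeR, adjusted p = 0.808), and it turned to 0.02 without Control replicate 2 and to 0.01 without Control replicate 4. The pseudogene Hadhb-ps is 99.8% identical to Hadhb over 1428 bases, and it had 1 to 10 counts a library, so some reads of either could have been dropped or moved between them. Another processed pseudogene, Gm9108, is 97.6% identical to Hadhb over 1426 bases.

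The ratio of Hadha to Hadhb counts was spread more widely over the control libraries than over those labelled Mitol KO. This difference in spread was not tested. The log2 ratio Hadha/Hadhb was 0.54, 0.83, 0.85 and 0.64 in the libraries labelled Mitol KO and 1.00, 0.18, 0.64 and -0.09 in the control libraries. The means of 0.71 ± 0.15 and 0.43 ± 0.48 (SD, n = 4 each) differed by 0.28 (exact permutation, 2-sided, p = 0.314, and 0.629 after adjustment for 6 ratios). Control replicate 1 was the highest of all 8 libraries and Control replicate 4 the lowest, and without them the difference was 0.47 and 0.11, respectively.

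Acaa2, the thiolase of the last step, had normalized counts of 434, 373, 359 and 380 in the libraries labelled Mitol KO and of 385, 400.1, 340.1 and 290.1 in the control libraries. The groups overlapped over most of their range. The log2 fold change was 0.11 ± 0.13 (SE), with a 95% interval of -0.16 to 0.39 (edgeR, adjusted p = 0.619), and 0.028 without Control replicate 4.

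**Figure D3:**
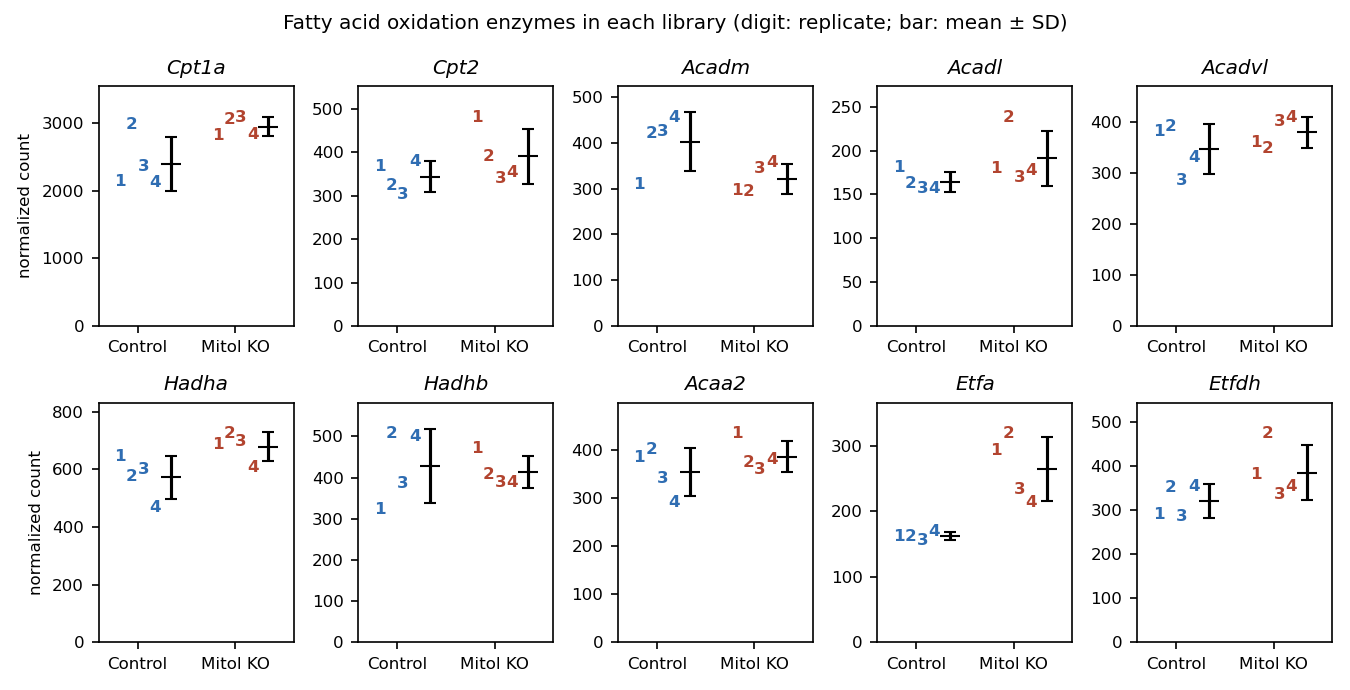
Normalized count of each member in every library, on axes that start at 0; digits are replicate numbers (blue, control; red, Mitol KO) and bars are mean ± SD over 4 libraries. The Etfa values of 214 to 318 in Mitol KO lie above those of 155 to 170 in control, while in the other 9 members the groups overlap.

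As a description of the pathway as a whole, the mean normalized count over the 10 members was 639, 661, 635 and 607 in the libraries labelled Mitol KO and 517, 626, 529 and 522 in the control libraries. Control replicate 2 lay within the range of the first group and the other 3 control libraries below it. The group means were 636 ± 22.1 and 548 ± 51.9 (SD, n = 4 each), and without Cpt1a, which takes the largest share of these reads, 379 ± 20.5 and 344 ± 16.5.

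Levels of different genes were compared per length, as TMM-scaled CPM (read counts scaled to a common library total) divided by the kilobases of annotated exon. In the control libraries Cpt1a had the highest level, 23.4 ± 3.85 CPM per kb (SD, n = 4), followed by Cpt2 at 10.6 ± 1.12 and Acadvl at 9.42 ± 1.32. Acadm followed at 6.83 ± 1.11, Hadha at 6.40 ± 0.82, Acaa2 at 5.85 ± 0.80 and Acadl at 4.49 ± 0.30. Etfdh at 3.93 ± 0.48, Hadhb at 2.91 ± 0.62 and Etfa at 2.59 to 2.85 closed the order.

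Most neighbours in this order had overlapping ranges. Cpt1a lay above Cpt2 in 8 of 8 libraries and Etfdh above Hadhb in 8 of 8, with control ranges apart for these pairs alone. Per kb of the longest annotated transcript, Cpt1a kept the first place (37.7 ± 6.22 CPM per kb in control) and Etfa the last (3.52 ± 0.14), but Acadm stood above Cpt2, at 19.8 ± 3.24 against 14.5 ± 1.53. In the libraries labelled Mitol KO, the level of Etfa was 4.35 ± 0.78 CPM per kb of annotated exon, above that of Hadhb at 2.78 ± 0.25, and per kb of longest transcript it was again the lowest, at 5.69 ± 1.02.

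**Figure D4:**
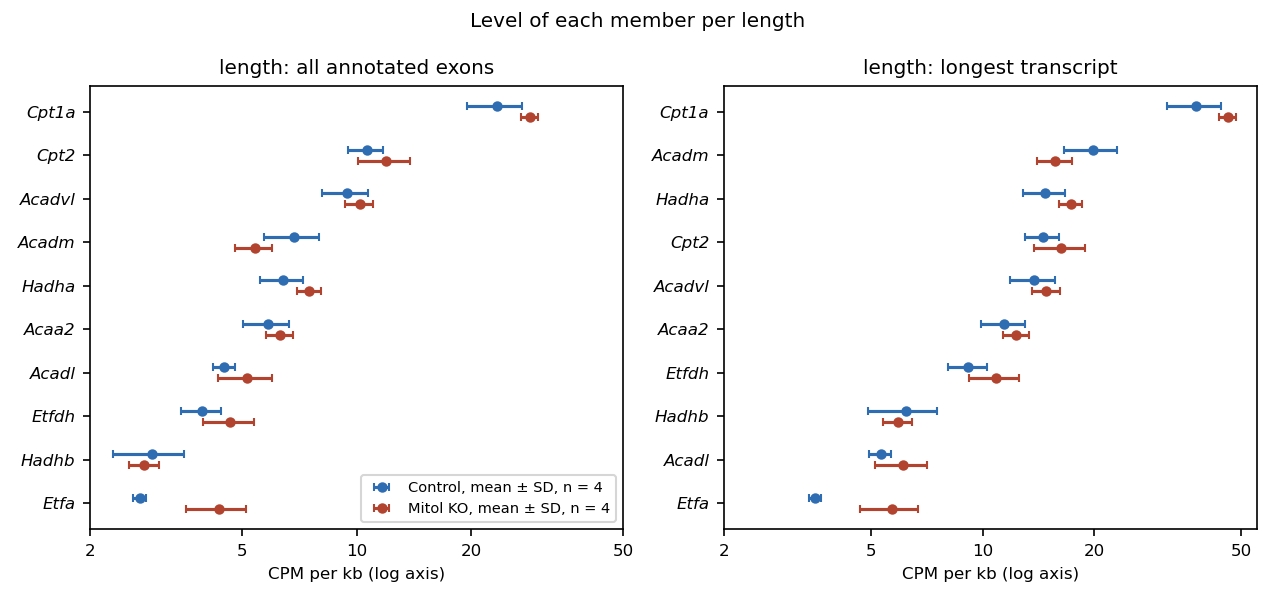
Level of each member in CPM per kb on a log axis, by the length of all annotated exons (left) and of the longest transcript (right). Points are means and bars SD over 4 libraries (blue, control; red, Mitol KO). Cpt1a is the highest on both scales, at 23.4 and 37.7 in control, and Etfa the lowest in control, at 2.59 to 2.85 on the left scale.

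Around the members, 12 lists of 113 other genes of fatty acid metabolism were counted. Of these genes, 98 were tested, 2 were called higher and 3 lower, and 93 did not pass the test; 12 lay below the filter and 3 were not rows of the table used here. These calls, and the 12 higher and 13 lower at an unadjusted p under 0.05, lie beside shares of 4.68%, 3.75%, 13.6% and 12.8% over all tested genes, in that order. The median log2 fold change of the 98 was -0.0027. In 8 of the 12 lists 0 genes were called (edgeR, adjusted p under 0.05). Of the 56 tested genes of those lists, 12 had an unadjusted p under 0.05, 1 (Etfb) was called by DESeq2 and 0 by limma-voom.

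Uptake and activation supply the acyl-CoA that Cpt1a uses, and 2 of its 11 tested genes were called lower and 0 higher. Over all tested genes 3.75% were called lower and 4.68% higher, and these shares also stand beside the counts of the lists below. Of the 11 genes, 4 had log2 fold changes above 0 and 7 below, with a median of -0.03. Their list summed to normalized counts of 3870 to 4126 in the libraries labelled Mitol KO and 3788 to 4056 in the control libraries, which overlapped. Slc27a6, a fatty acid transport protein, had normalized counts of 101, 99.8, 98.9 and 67.7 in the libraries labelled Mitol KO and of 113, 162, 154 and 194 in the control libraries. The groups did not overlap, and the log2 fold change was -0.78 ± 0.21 (SE; edgeR, adjusted p = 0.0395). Without Control replicate 1 the call held (edgeR, adjusted p = 0.0296), and without any other single library it was lost, at adjusted p-values of 0.0548 to 0.112.

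Acsl1, an acyl-CoA synthetase, had 355, 376, 306 and 334 in the libraries labelled Mitol KO and 439, 500.1, 382 and 533 in the control libraries. These groups did not overlap either, with a log2 fold change of -0.46 ± 0.13 (SE; edgeR, adjusted p = 0.0472). This call held without Control replicate 3 (edgeR, adjusted p = 0.0398) and was lost without any other single library, at 0.0635 to 0.138.

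The other acyl-CoA dehydrogenases held 1 gene called lower and 0 higher among 9. Acad12, a family member, had normalized counts of 150.3, 172, 146 and 201 in the libraries labelled Mitol KO and of 247, 336, 246 and 265 in the control libraries. All of the first lay below all of the second, with a log2 fold change of -0.73 ± 0.16 (SE; edgeR, adjusted p = 0.0207). The call was lost without Mitol KO replicate 1, 2 or 3 or without Control replicate 2, at adjusted p-values of 0.0522 to 0.0710.

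Peroxisomes shorten very long chains, and of the 11 tested genes of that list 1 was called higher and 0 lower. Scp2, whose longer product is a peroxisomal thiolase, had normalized counts of 389, 347, 379 and 417 in the libraries labelled Mitol KO and of 290.1, 252, 264 and 207 in the control libraries. The groups were apart, and the log2 fold change was 0.58 ± 0.13 (SE; edgeR, adjusted p = 0.0220). Leaving out Mitol KO replicate 1 or 3 or Control replicate 2 or 4 ended the call, at 0.0517 to 0.0668.

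Fatty acid synthesis and elongation run in the opposite direction to oxidation, and 1 of the 12 genes of that list was called higher and 0 lower. Elovl5, an elongase of polyunsaturated chains, had normalized counts of 1527, 1529, 1409 and 1498 in the libraries labelled Mitol KO and of 997, 1061, 1290 and 847 in the control libraries. Again the groups were apart, with a log2 fold change of 0.49 ± 0.11 (SE; edgeR, adjusted p = 0.0261). Without Mitol KO replicate 1, 2 or 3 or Control replicate 2 or 4 the adjusted p was 0.0511 to 0.0740.

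**Figure D5:**
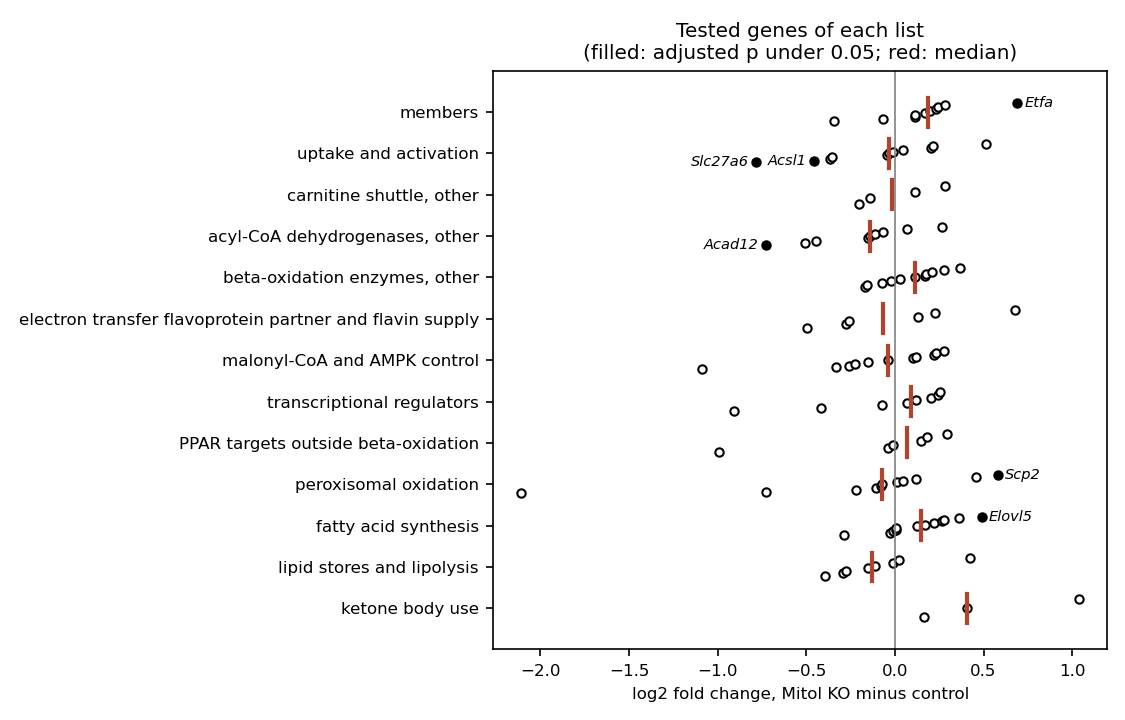
Log2 fold change (Mitol KO minus control) of every tested gene in the list of members and the 12 other lists; each point is a gene, filled and named where the adjusted p is under 0.05, and the red line is the median of the list. The 6 filled points are Etfa, Slc27a6, Acsl1, Acad12, Scp2 and Elovl5; the median of the members is 0.18 and those of the other lists run from -0.14 to 0.41.

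The remaining steps held no called gene. In the carnitine shuttle, the carnitine acetyltransferase Crat had a log2 fold change of 0.28 (edgeR, adjusted p = 0.206) and the carnitine-acylcarnitine carrier Slc25a20 one of 0.11 (0.576). Of the other oxidation enzymes, the short-chain dehydrogenase Hadh stood at -0.02 (edgeR, adjusted p = 0.898) and the thiolase Acat1 at 0.37 (0.187). In the supply of flavin, on which Etfa, Etfb and the dehydrogenases depend, the riboflavin kinase Rfk had a log2 fold change of 0.23 without overlap of the groups (edgeR, adjusted p = 0.129), and the FAD synthase Flad1 one of -0.26 (0.203).

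Control of Cpt1a runs through malonyl-CoA and AMPK. There the kinase Stk11 stood at 0.22 (edgeR, adjusted p = 0.182) and the AMPK subunit Prkag2 at -0.15 (0.285). Of lipid stores, the lipase Pnpla2 had a log2 fold change of -0.15 (edgeR, adjusted p = 0.445) and the droplet protein Plin3 one of -0.28 (0.114). Of the ketone body genes, Oxct1, which activates ketone bodies for use, stood at 0.41 (edgeR, adjusted p = 0.141). Oxct1 passed the threshold without Mitol KO replicate 4 (log2 0.56; edgeR, adjusted p = 0.0233).

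The regulators of the pathway's genes were counted as a list of 11, of which 9 were in the table and 8 were tested. Ppard, a nuclear receptor for fatty acids, had normalized counts of 299, 392, 435 and 478 in the libraries labelled Mitol KO and of 379.8, 373, 327 and 429 in the control libraries, with a log2 fold change of 0.07 ± 0.15 (SE; edgeR, adjusted p = 0.818). Pml, which is known to act upstream of Ppard in HSCs, stood at 0.12 (edgeR, adjusted p = 0.388) and the receptor partner Rxrb at 0.20 (0.384). None of these 3 passed the threshold.

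Of the coactivators of oxidative genes, Ppargc1a had lower counts than Ppard in every library. Ppargc1a had 32.1, 32.2, 34.8 and 21.2 in the libraries labelled Mitol KO and 40.9, 30.9, 47.1 and 103 in the control libraries, where Control replicate 4 stood far above the rest. Its log2 fold change was -0.91 ± 0.38 (SE; edgeR, adjusted p = 0.149), and without Control replicate 4 it was -0.41 (0.496). Ppargc1b had a log2 fold change of 0.25 ± 0.23 (SE; edgeR, adjusted p = 0.512). Among PPAR targets outside oxidation, Ucp2 stood at 0.15 (edgeR, adjusted p = 0.415) and Acot2 at -0.04 (0.885).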

How the data were processed

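The deposited table held raw read counts per gene for the 8 libraries. Per the paper's methods and the labels, the authors aligned 75-base single-end reads to mm39 (the GRCm39 assembly) with STAR, merged the alignments with SAMtools and counted them with Subread. The annotation and the strand setting are not given in the sources used here, and the library kit does not mark strand. The table held 23094 rows, of which 1029 had no gene symbol. Those took 0.335% to 0.467% of the counts and were left out.

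Genes were filtered with edgeR's filterByExpr, scaled by TMM and compared with edgeR's quasi-likelihood test (edgeR 4.0.16, R 4.3.3), with Benjamini-Hochberg adjustment over all 16444 tested genes and a threshold of 0.05. The study's methods name DESeq2 (here 1.42.0), which was run as an alternative, as was limma-voom (limma 3.58.1). Normalized counts were divided by DESeq2 size factors. Ratios within a library took log2 of the counts with 0.5 added. Single values were compared by 2-sided exact permutation tests. Gene positions, exons and promoter windows came from GENCODE vM39 on GRCm39. Methods were tested on simulated data. Other fits changed the scaling, the filter or the tool, left out each library, or added the replicate number as a block.

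The genes named were the 10 members, Marchf5, the genes of each list past the threshold (at most 4, or the 2 most abundant where none passed), Ppard, Ppargc1a and Ppargc1b, with Etfb for its ratio. The members and lists were chosen with earlier results of these data known. Some results that these rules cover are not reported here.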

Additional observations from a re-analysis of the deposited data

Results flagged for a closer look

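Of 38 groups of 4 libraries examined, 2 held a library far from the other 3, where chance gives about 1 in 20. In the libraries labelled Mitol KO, the normalized count of Acadl was 238 in replicate 2, and the gap to the next library took up 0.856 of the range of the group. In the control libraries, the mean normalized count over the 10 members was 626 in replicate 2, with a gap of 0.889 of the range. Cpt1a took 47.4% of the member reads in that library, so the flag is not independent of its Cpt1a value. Without that library Cpt1a passed the threshold and Etfa did not. Etfa also lost its call without Mitol KO replicate 1 or 2 or Control replicate 3.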

How the results depend on the processing

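The 10 members kept their direction and their side of the threshold in all 80 fits that used all 8 libraries, in which Etfa ran from 0.63 to 0.72 on the log2 scale (adjusted p 0.0010 to 0.0319). In the 80 member fits that left out 1 library, 73 did so. The number of members called then ran from 0 to 1, and without Control replicate 2 the 1 called was Cpt1a. Calls over all genes numbered 1386, against 359 (without Control replicate 2) to 2501 (without Mitol KO replicate 4) with 1 library left out, 2315 with DESeq2 and 2585 at an adjusted p under 0.10. The 5 calls in the pathway lists became 3 with no filter, 8 with DESeq2, 11 at an adjusted p under 0.10 and 0 to 9 with 1 library left out. Of the calls over all genes 55.6% were higher, against 41.3% with upper-quartile factors and 42.1% with library totals alone. The causes were not tested.

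Leaving out 1 library moved the ratio differences to -0.039 to 0.11 for Etfa/Etfb, -0.49 to -0.37 for Etfdh/Etfa, -0.62 to -0.33 for Acadm/Acadvl, -0.081 to 0.15 for Acadl/Acadvl, 0.11 to 0.47 for Hadha/Hadhb and 0.029 to 0.27 for Cpt1a/Cpt2. It moved the log2 fold changes to -0.17 to 0.019 for Hadhb, -0.086 to 0.048 for Hadh, -0.12 to 0.074 for Acot2 and -0.0097 to 0.19 for Ppard. With no filter Hadh stood at 0.00055. Etfb was called with DESeq2, Slc27a6 lost its call with no filter (edgeR, adjusted p = 0.0522), and Acsl1 lost its call with DESeq2 size factors (0.0530), no filter (0.0719) and limma-voom (0.0537).

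Groups share replicate numbers, but the deviations of same-numbered libraries correlated at only 0.08, -0.07, 0.05 and 0.07. With the replicate number as a block, 1652 genes were called in place of 1386, 1 member and 7 genes of the pathway lists, and Slc27a6 lost its call (edgeR, adjusted p = 0.0645). Not every library correlated best with its own number. Acadl (137 to 229 reads) and Etfa (122 to 374) had the fewest reads among the members, so counting error weighs most on them.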
